A study of Mus musculus with 16 samples.

Results

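The Ikaros family consists of 5 zinc finger transcription factors, encoded in the mouse by Ikzf1 (Ikaros), Ikzf2 (Helios), Ikzf3 (Aiolos), Ikzf4 (Eos) and Ikzf5 (Pegasus). All 5 genes were represented among the 18193 genes on the arrays, each by the probe set with the highest mean over the 16 arrays. The family was chosen by a result from these same arrays: Ikzf3 had been seen to separate T cells given persistent antigen from those given transient antigen with anti-CD40. The values from that contrast are therefore given as a description with no test, and the tests below concern the other contrasts.

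The arrays measured RNA from CD4 T cells sorted out of mouse lymph nodes 60 hours after transfer. The donors were B10.BR mice with AND T cell receptor transgenes, whose receptor recognises a moth cytochrome c peptide, and their transferred cells carried the CD90.1 marker, by which they were recovered with FACS as CD4+CD90.1+ cells. Recipients, 6 to 8 weeks old, were Ii-rTA+ TIM+, in which doxycycline switches the antigen on, or Ii-rTA- TIM+, which lack the doxycycline-dependent activator. Each recipient had received PBS or FGK45.5, an agonist antibody to CD40 that activates dendritic cells.

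The treatments gave 6 groups. No antigen (Ii-rTA- TIM+ recipients) was combined with PBS on 3 arrays and with anti-CD40 on 2. Transient antigen (Ii-rTA+ TIM+, short doxycycline) was combined with PBS on 3 arrays and with anti-CD40 on 2, and persistent antigen (Ii-rTA+ TIM+, long doxycycline) with PBS on 3 and with anti-CD40 on 3. The no-antigen groups thus differ from the others in recipient genotype as well as in antigen, and their titles read no dox although the treatment notes list doxycycline for them. Nothing in the labels states that replicates are different mice; the p-values therefore cover no more than the array-to-array spread, part of which may be technical.

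Ikaros family proteins bind DNA through N-terminal zinc fingers and pair with one another through C-terminal ones. They recruit the NuRD chromatin remodelling complex, Sin3 and CtBP, and can repress or activate the genes they bind. In T cells Ikaros restrains Il2 and shapes helper differentiation, Helios and Eos are associated with regulatory T cells, and Aiolos is known from mature B cells and from Th17 and follicular helper cells.

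Values are log2(intensity + 1) of the deposited RMA intensities, and differences carry the standard error of a limma fit over all 16 arrays, with p-values adjusted by Benjamini-Hochberg over 18193 genes and a threshold of 0.05. The array medians ran from 18.2 to 21.3 intensity units, and the mean intensities of the arrays numbered replicate 2 (83.5 to 101.4) lay below those of all other arrays (106.3 to 120.6). Each array deviated from its group most like arrays of its own replicate number in 16 of 16 cases, so results of the same fit with the replicate number as a block are given beside the plain fit where they change a call. The median probe set had a value of 4.37; probe sets at or below it are not set apart from background here and give no exact fold. RNA came from sorted populations, so fewer cells expressing a gene and less RNA per cell cannot be told apart.

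Ikzf3 was highest under persistent antigen in both treatments and lowest under transient antigen. Aiolos, its product, dimerises with Ikaros. Its gene lies on chr11:98464610-98546031 (GRCm38.p6) and was read by probe set 1436649_at. With persistent antigen and PBS the 3 arrays read 9.23, 9.17 and 9.26, a mean of 9.22 ± 0.04 (SD, n = 3). With persistent antigen and anti-CD40 they read 9.02, 8.84 and 9.09, a mean of 8.98 ± 0.13 (SD, n = 3). These 6 arrays were the highest of the series for Ikzf3. Without antigen the PBS arrays read 8.19, 8.07 and 8.65 (8.30 ± 0.30, SD, n = 3) and the anti-CD40 arrays 8.57 and 8.38 (8.47 ± 0.13, SD, n = 2). With transient antigen the PBS arrays read 7.87, 8.10 and 8.19 (8.06 ± 0.17, SD, n = 3) and the anti-CD40 arrays 7.72 and 7.86 (7.79 ± 0.10, SD, n = 2). In the order of group means, the arrays without antigen overlapped each other and those with PBS overlapped the transient PBS arrays. The transient arrays with anti-CD40 lay just below all those with PBS, the highest at 7.86 against a lowest of 7.87.

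**Figure D1:**
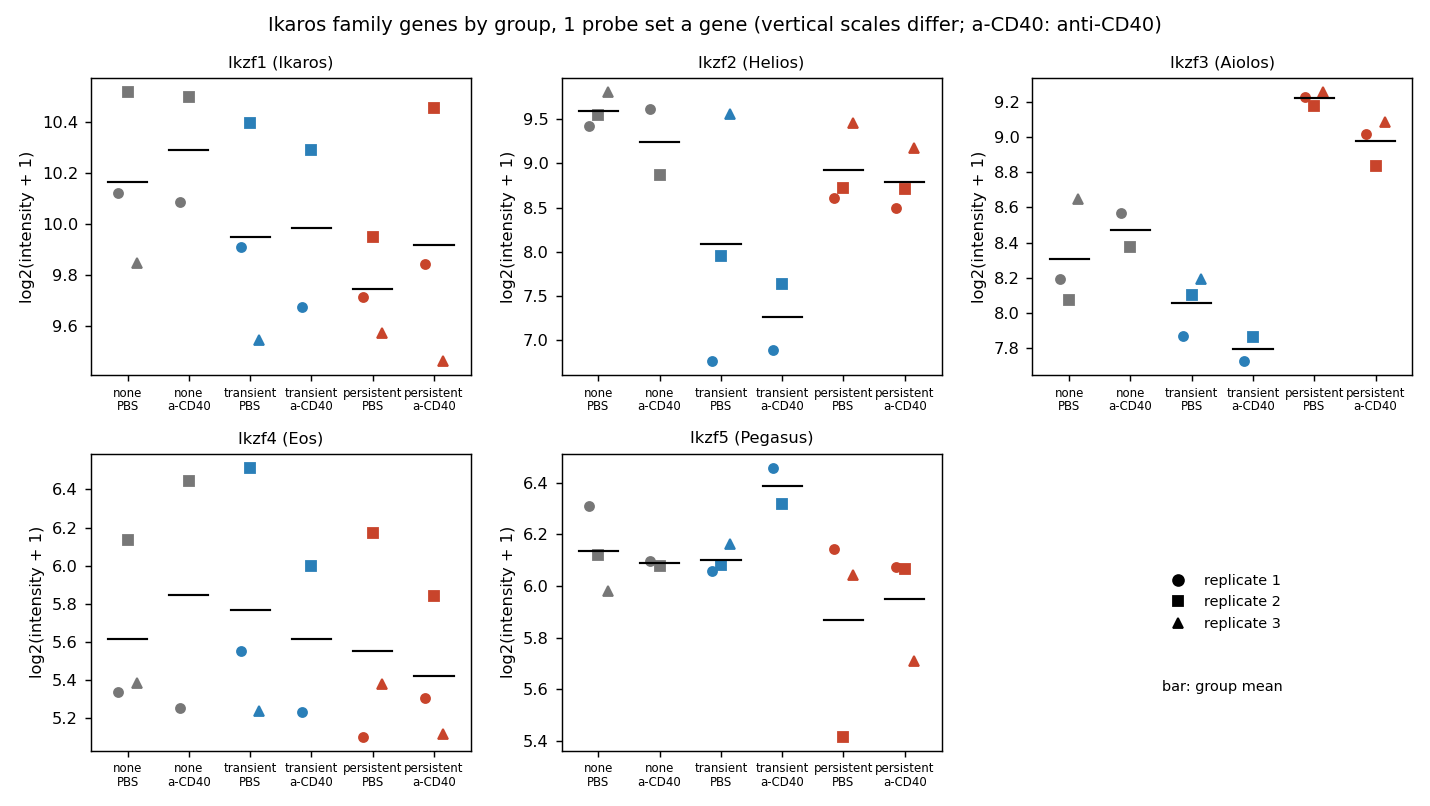
Each panel plots 1 gene's log2(intensity + 1) on every array, by group, with the replicate number as the symbol and the group mean as a bar; vertical scales differ. For Ikzf3 the 6 persistent-antigen arrays lie at 8.84 or above and all 10 others at 8.65 or below, while the Ikzf1 and Ikzf4 panels show replicate 2 highest in each group.

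Whether antigen that persists alters the family in resting lymph nodes was tested by persistent antigen against none with PBS. In that comparison 1 of 5 members passed, Ikzf3, against 3.57% of all genes (649). Ikzf3 is the member on which the family was chosen, and these persistent arrays may have entered that choice. Its p-values here are therefore not independent of the choice, and no other member passed. The persistent arrays were higher than every array without antigen, and Ikzf3 rose by 0.92 ± 0.22 (SE), 1.89-fold on this scale (limma, adjusted p = 0.03). With the replicate number as a block the adjusted p was 0.00024 (1 of 5 members, against 16.7% of all genes), and within replicates 1, 2 and 3 the differences were 1.04, 1.10 and 0.61. The call of the plain fit was lost without replicate 1 or 2 of the no-antigen PBS group or without any 1 of the 3 persistent PBS arrays, with differences of 0.80 to 0.94 and adjusted p up to 0.12; the blocked call held without each of the 16 arrays, with a highest adjusted p of 0.0034. In a fit of the compared groups alone the adjusted p was 0.2, and after cyclic loess scaling the difference was 0.80 with an adjusted p of 0.092.

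Persistent against transient antigen with PBS also left 1 of 5 members past the threshold, again Ikzf3, against 0.929% of all genes (169). The persistent arrays did not overlap the transient ones, and Ikzf3 rose by 1.16 ± 0.22 (SE), 2.24-fold (limma, adjusted p = 0.02). With the replicate block the adjusted p was 4.3e-05 (1 of 5 members, against 11.4% of all genes), with differences of 1.36, 1.07 and 1.06 within the 3 replicate numbers. Without any 1 of the 3 transient PBS arrays, or without persistent PBS replicate 1 or 3, the plain fit gave 1.07 to 1.23 with adjusted p of 0.069 to 0.11; the blocked call held in all 16 such fits, with a highest adjusted p of 0.00082. The compared groups alone gave an adjusted p of 0.13. In the blocked fits 1 call among 5 genes lies near the share of all genes called, and it says nothing of the family as a set. These PBS arrays of the persistent group may also have entered the contrast on which Ikzf3 was selected, so neither test is independent of that choice.

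The contrast that selected the family can be read as persistent minus transient antigen, both with anti-CD40. On that reading Ikzf3 differed by 1.19, from 7.79 to 8.98, and the arrays did not overlap. Ikzf2 differed by 1.53 and Ikzf5 by -0.44, each without overlap, while Ikzf1 (-0.06) and Ikzf4 (-0.19) overlapped. Read as persistent antigen with PBS against transient antigen with anti-CD40, the differences were 1.43 for Ikzf3, 1.67 for Ikzf2, -0.52 for Ikzf5, -0.24 for Ikzf1 and -0.06 for Ikzf4. Against no antigen with anti-CD40, Ikzf3 in transient antigen with anti-CD40 was lower by a difference of -0.68, again without overlap. These values describe the pattern that brought the family to notice and carry no test.

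The 2 other Ikzf3 probe sets did not share this pattern. Probe sets 1441088_at and 1453378_at had means of 4.15 and 3.94 over all arrays, below the median probe set, and neither passed in any tested comparison, with or without the block. Their correlations with 1436649_at over the 16 arrays were 0.034 and -0.295. With the mean of the 3 probe sets in place of 1436649_at, the differences shrank to 0.10 (persistent minus none) and 0.34 (persistent minus transient).

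Ikzf2 was highest without antigen and lowest with transient antigen, on chr1:69531207-69687351. Helios, its product, marks many thymic regulatory T cells and is also found in activated T cells. Probe set 1437542_at read 9.42, 9.55 and 9.81 without antigen with PBS, and 9.61 and 8.86 with anti-CD40. Under transient antigen it read 6.75, 7.94 and 9.56 with PBS and 6.89 and 7.63 with anti-CD40. Transient PBS replicate 3, at 9.56, stood within the no-antigen range, while the other 4 transient arrays were below every array without antigen. Under persistent antigen it read 8.60, 8.72 and 9.47 with PBS and 8.50, 8.71 and 9.17 with anti-CD40. Replicate 3 was the highest array of each group that holds one.

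In transient antigen against none with PBS, 0 of 5 members passed in limma (1 at an unadjusted p under 0.05), against 0.126% of all genes (23). With the replicate block 1 of 5 passed, Ikzf2, against 2.89% of all genes. Its difference was -1.51 ± 0.53 (SE) with an adjusted p of 0.76, and ± 0.33 with an adjusted p of 0.014 in the blocked fit. The differences within replicates 1, 2 and 3 were -2.67, -1.60 and -0.25, so the size varied widely while the sign did not. Without no-antigen PBS replicate 1 or 2, or transient PBS replicate 1 or 2, the blocked differences were -1.33, -1.42, -0.97 and -1.54, with adjusted p of 0.05 to 0.098. Ikzf3 differed by -0.25 ± 0.22 (adjusted p = 1), and the remaining members by -0.21 to 0.15.

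With anti-CD40, transient antigen against none again left 0 of the 4 members tested past the threshold in limma (1 at an unadjusted p under 0.05), against 0.572% of all genes (104). The transient arrays were below both no-antigen arrays, and Ikzf2 differed by -1.98 ± 0.65 (SE; adjusted p = 0.22). With the block its adjusted p was 0.0021 (1 of 4 members, against 14.0% of all genes), with -2.73 and -1.23 within replicates 1 and 2. Without no-antigen anti-CD40 replicate 1 the blocked difference was -1.37 (adjusted p = 0.062), and without transient anti-CD40 replicate 1 it was -1.70 (adjusted p = 0.06).

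Under persistent antigen Ikzf2 differed from no antigen by -0.67 ± 0.53 with PBS (adjusted p = 0.73, and 0.2 with the block). With anti-CD40 it differed by -0.45 ± 0.60 (adjusted p = 0.79), and by -0.77 with the block (adjusted p = 0.19). Persistent antigen exceeded transient antigen with PBS by 0.84 ± 0.53 (adjusted p = 0.62, and 0.11 with the block), with 1.85, 0.77 and -0.10 within the replicate numbers. None of these passed, and leaving out transient PBS replicate 3 gave a blocked difference of 1.39 (adjusted p = 0.0064).

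A second Ikzf2 probe set, 1456956_at, followed the first over the 16 arrays with a correlation of 0.912. Its group means were 9.20 and 8.71 without antigen, 7.19 and 5.67 with transient antigen, and 7.83 and 7.52 with persistent antigen, PBS before anti-CD40. The transient arrays with anti-CD40 (5.86 and 5.48) were the lowest of the series for it. Its transient minus none difference was -2.0 ± 0.66 with PBS (adjusted p = 0.66, and 0.01 with the block) and -3.04 ± 0.81 with anti-CD40 (adjusted p = 0.11, and 0.00043 with the block). Only the latter blocked call held without each of the 16 arrays; the former was lost without no-antigen PBS replicate 2 or transient PBS replicate 1, where the blocked adjusted p rose to as much as 0.09. Against no antigen, persistent antigen gave -1.37 with PBS (adjusted p = 0.42, and 0.028 with the block) and, in the blocked fit, -1.60 with anti-CD40 (adjusted p = 0.025). The first of these blocked calls was lost without no-antigen PBS replicate 1 or 2 or any 1 persistent PBS array (up to 0.22), the second without no-antigen anti-CD40 replicate 1 or persistent anti-CD40 replicate 2 (up to 0.28). The third probe set, 1421643_at, lay below the median probe set and passed nowhere.

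**Figure D2:**
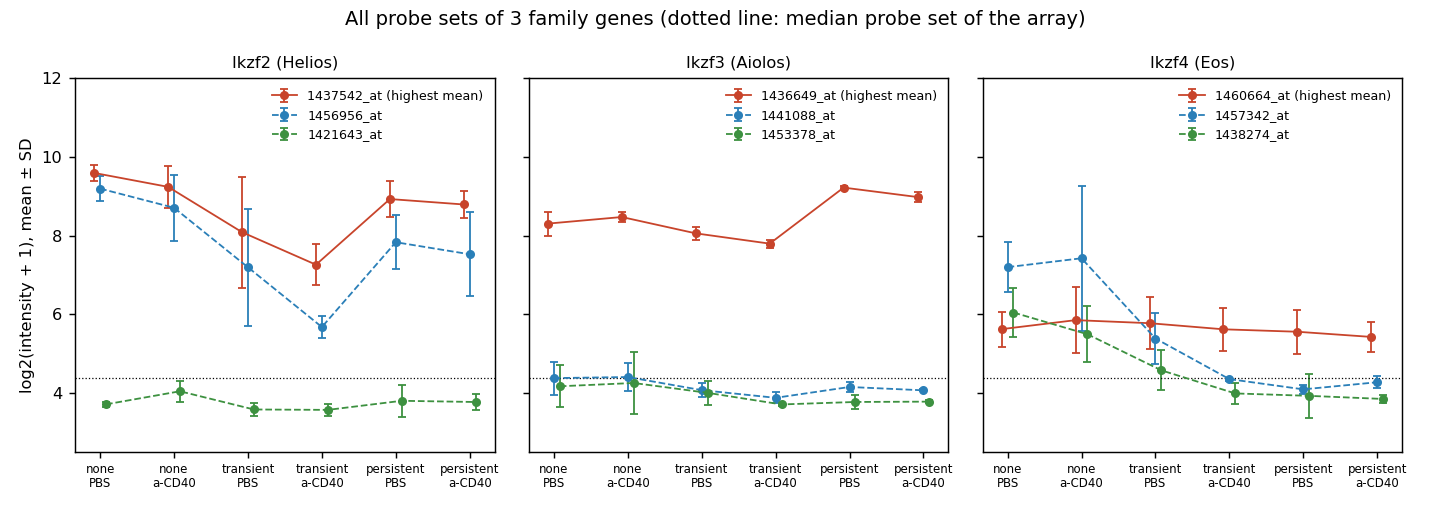
Group means ± SD of log2(intensity + 1) for every probe set of Ikzf2, Ikzf3 and Ikzf4; the solid line is the probe set with the highest mean and the dotted line the median probe set at 4.37. In the Ikzf4 panel 1457342_at goes from 7.20 without antigen to 4.08 with persistent antigen (PBS) while 1460664_at stays between 5.42 and 5.85.

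Ikzf4 gave different answers by probe set. Eos, its product, is a partner of Foxp3 in regulatory T cells, and the gene lies on chr10:128630839-128669671. The probe set with the highest mean, 1460664_at, read 5.34, 6.13 and 5.38 without antigen with PBS and 5.25 and 6.44 with anti-CD40. With transient antigen it read 5.55, 6.51 and 5.24 (PBS) and 5.23 and 6.00 (anti-CD40), and with persistent antigen 5.10, 6.17 and 5.38 (PBS) and 5.30, 5.84 and 5.12 (anti-CD40). Replicate 2 was the highest array in each of the 6 groups, and no comparison passed with or without the block.

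The 2 other Ikzf4 probe sets were higher without antigen and followed each other over the arrays with a correlation of 0.927, against -0.059 and 0.064 with 1460664_at. Probe set 1457342_at read 7.69, 6.47 and 7.43 without antigen with PBS and 8.73 and 6.11 with anti-CD40. It read 4.93, 5.08 and 6.13 with transient antigen and PBS, and 4.37 and 4.32 with anti-CD40. With persistent antigen it read 3.97, 4.18 and 4.10 with PBS and 4.09, 4.37 and 4.33 with anti-CD40. The persistent arrays lay at the level of the median probe set and below all the arrays without antigen.

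Measured by 1457342_at, Ikzf4 fell by 3.11 ± 0.51 (SE) in persistent antigen against none with PBS (limma, adjusted p = 0.0033), with -3.72, -2.29 and -3.33 within the replicate numbers. With anti-CD40 it fell by 3.16 ± 0.57 (adjusted p = 0.013), and both calls held without each of the 16 arrays, with highest adjusted p of 0.02 and 0.049. In transient antigen against none with anti-CD40 it fell by 3.08 ± 0.63 (adjusted p = 0.046), a call kept in 16 of 16 fits without an array with the block. In the plain fit it was kept in 3 of 16, those without no-antigen PBS replicate 2, no-antigen anti-CD40 replicate 2 or transient PBS replicate 3, with differences of -4.38 to -1.77 and adjusted p up to 0.32 over the 16. With PBS the transient difference was -1.82 ± 0.51 (adjusted p = 0.39, and 0.014 with the block); the blocked call was lost without no-antigen PBS replicate 1 or transient PBS replicate 1 or 2 (up to 0.1).

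Probe set 1438274_at fell by 2.12 ± 0.36 (SE) in persistent antigen against none with PBS (adjusted p = 0.0042; held without each of the 16 arrays) and by 1.65 ± 0.40 with anti-CD40 (adjusted p = 0.048). The latter was kept in 4 of 16 such fits, those without no-antigen PBS replicate 2 or 3, transient PBS replicate 3 or persistent PBS replicate 2 (-2.15 to -1.14, adjusted p up to 0.18), and with the block in all but the fit without no-antigen anti-CD40 replicate 1 (0.056). Its group means were 6.04 and 5.49 without antigen, 4.57 and 3.98 with transient antigen, and 3.92 and 3.84 with persistent antigen, PBS before anti-CD40. Persistent against transient antigen with PBS passed for 1457342_at only with the block (-1.29 ± 0.51, adjusted p = 0.33, and 0.039 with the block, up to 0.2 without transient PBS replicate 2 or 3 or persistent PBS replicate 1 or 3), and for 1438274_at not at all (-0.65, adjusted p = 0.55, and 0.18 with the block). The groups at or below the median probe set make these fitted values inexact. With such arrays set to 4.37, the persistent PBS mean was at least 7.11-fold below no antigen by 1457342_at and at least 3.06-fold by 1438274_at. With anti-CD40 the persistent mean was at least 8.30-fold and 2.18-fold below. These bounds concern the group means and not single arrays. By 1457342_at with anti-CD40, the differences within replicates 1 and 2 were -4.64 and -1.74. Which part of the Ikzf4 transcript each probe set reads was not analysed here.

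**Figure D3:**
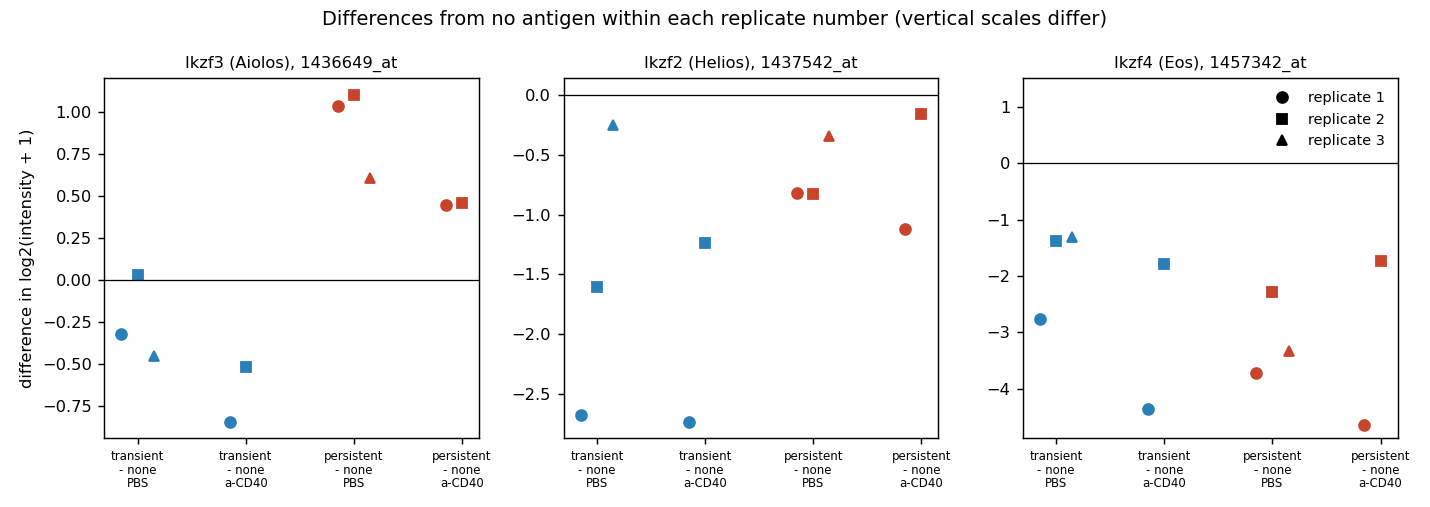
Differences from the no-antigen array of the same replicate number and treatment, in log2(intensity + 1), for 3 probe sets; the symbol is the replicate number and the line marks no difference. Ikzf3 lies above the line for persistent antigen (0.45 to 1.10), and 1457342_at of Ikzf4 lies below it for all antigen groups (-1.30 to -4.64).

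Ikzf1 showed no called difference, and replicate 2 was the highest array in each group. Ikaros is the founding member, required for lymphocyte development, and its gene lies on chr11:11684962-11772930. Probe set 1436312_at read 10.12, 10.52 and 9.85 without antigen with PBS and 10.09 and 10.50 with anti-CD40. It read 9.91, 10.40 and 9.54 with transient antigen and PBS, and 9.68 and 10.29 with anti-CD40. With persistent antigen it read 9.71, 9.95 and 9.57 with PBS and 9.84, 10.46 and 9.46 with anti-CD40, overlapping the other groups. In persistent antigen against none with PBS it differed by -0.42 ± 0.32 (SE; adjusted p = 0.7), and with the block by the same amount ± 0.14 (adjusted p = 0.053), being lower in all 3 replicate numbers (-0.41, -0.57 and -0.27). The blocked adjusted p fell to between 0.04 and 0.046 without no-antigen anti-CD40 replicate 1 or 2, persistent PBS replicate 3 or persistent anti-CD40 replicate 2, with differences of -0.53 to -0.42. The second probe set, 1421303_at, passed nowhere and correlated with the first at 0.442.

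Ikzf5 also showed no called difference. Pegasus is the most divergent member and binds another DNA sequence than the rest; its gene lies on chr7:131388649-131410518. Probe set 1429431_at read 6.31, 6.12 and 5.98 without antigen with PBS, and 6.10 and 6.08 with anti-CD40. It read 6.06, 6.08 and 6.16 with transient antigen and PBS, and 6.46 and 6.32 with anti-CD40. With persistent antigen it read 6.14, 5.42 and 6.04 with PBS and 6.07, 6.06 and 5.71 with anti-CD40. The transient arrays with anti-CD40 were the highest of the series for this gene, and persistent PBS replicate 2 the lowest. Its tested differences between antigen groups ran from -0.27 to 0.30, and probe set 1436554_at passed nowhere either.

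How anti-CD40 altered the family was tested at each antigen level, and no member passed. Persistent antigen against none with anti-CD40 gave 0 of 5 members in limma (0 at an unadjusted p under 0.05, and 0 with the block), against 2.37% of all genes (432), or 16.4% with the block. Ikzf3 differed by 0.51 ± 0.24 (SE; adjusted p = 0.37, and 0.11 with the block); its 3 persistent arrays lay above both no-antigen arrays. The change in this difference from PBS to anti-CD40 was -0.41 ± 0.32 for Ikzf3 (adjusted p = 1), and 0 of 5 members passed that interaction in limma (0 at an unadjusted p under 0.05), as did 0% of all genes (157 at an unadjusted p under 0.05). The larger Ikzf3 difference with PBS was thus not shown to differ from that with anti-CD40. Where the selecting contrast is read with anti-CD40 in both groups, the persistent anti-CD40 arrays entered the choice of Ikzf3. None of its tests on them, here or against PBS, can be taken as independent of that choice, and their p-values are a description only.

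Anti-CD40 against PBS called 0 of 5 members without antigen and 0 of 5 with persistent antigen in limma (0 at an unadjusted p under 0.05 in both), as it called 0% of all genes in either (317 and 110 at an unadjusted p under 0.05). With transient antigen 0 of 4 members passed in limma (0 at an unadjusted p under 0.05, and 0 with the block), against 0.638% of all genes (116), or 10.5% with the block. Ikzf3 was lower with anti-CD40 under persistent antigen in all 3 replicate numbers, by a difference of -0.24 ± 0.22 (SE; adjusted p = 1), and the arrays did not overlap. Under transient antigen Ikzf2 differed by -0.83 ± 0.60 (adjusted p = 0.86), and Ikzf3, untested there, by -0.26.

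Among the corepressors that the family recruits, Chd3 was the member called in limma. Of 21 measured, 1 fell and 0 rose in persistent antigen against none with PBS, where 3.57% of all genes passed, and likewise against transient antigen (0.929%). The list's median differences were 0.17 and 0.23, beside -0.03 and -0.05 over all genes. Chd3, an ATPase of the NuRD complex, went from 8.51 without antigen and 8.68 with transient antigen to 7.35 with persistent antigen, all with PBS. Its means with anti-CD40 were 8.58 without antigen, 7.44 with transient and 7.17 with persistent antigen. Low Chd3 was thus not particular to persistent antigen. With PBS it fell by 1.15 ± 0.22 (SE, limma, adjusted p = 0.0092) against none and by 1.32 ± 0.22 (adjusted p = 0.012) against transient antigen. The first call was lost without persistent PBS replicate 1 or 3 (adjusted p up to 0.053), the second also without transient PBS replicate 2 or 3 (up to 0.08), and neither with the block. The blocked fit added Mbd2 (0.53) and Cdk2ap1 (1.08), further NuRD subunits, as higher in persistent antigen than in none (3 of 21 called in all, against 16.7% of all genes). With anti-CD40 the blocked fit called 6 higher and 1 lower in persistent antigen against none, against 16.4% of all genes, and 5 higher and 1 lower in transient antigen against none, against 14.0%. The list's median differences there were 0.32 and 0.26, beside -0.03 and -0.01 over all genes. The plain fit called Chd3 alone in the first of these (-1.41, adjusted p = 0.011), where 2.37% of all genes passed. It called 0 in the second (4 at an unadjusted p under 0.05), where 0.572% of all genes did. Mbd2, Rbbp7, Cdk2ap1 and Smarca4 were higher in both blocked comparisons.

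Enzymes that modify Ikaros family proteins had 10 of 11 members measured. In limma 0 passed in persistent antigen against none or against transient antigen with PBS (3 and 0 at an unadjusted p under 0.05). Of all genes 3.57% and 0.929% passed there. These enzymes are the kinase CK2, protein phosphatase 1 and the cereblon ubiquitin ligase, the last known as the route by which thalidomide analogues degrade Ikaros and Aiolos. With the block, persistent antigen against none had 4 higher (Csnk2a1 0.77, Cul4b 0.75, Ppp1ca 0.60 and Ddb1 0.51) and 1 lower (Rbx1 -0.55), against 16.7% of all genes. The list's median difference was 0.36 in that comparison, beside -0.03 over all genes. Against transient antigen with PBS the block called 0 higher and 1 lower, against 11.4% of all genes. With anti-CD40 it called 5 higher and 0 lower in transient and in persistent antigen against none, where 14.0% and 16.4% of all genes passed. The medians there were 0.59 and 0.58, beside -0.01 and -0.03. The plain fit called 0 in both (3 and 1 at an unadjusted p under 0.05), against 0.572% and 2.37% of all genes.

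Of 20 genes reported in the literature as regulated by Ikaros family members in lymphocytes, 3 rose and 3 fell in persistent antigen against none with PBS, where 3.57% of all genes passed. The list was drawn up with earlier results of these arrays known, and is no independent evidence of a direction. Its median difference was -0.15, beside -0.03 over all genes, and the blocked fit called 5 higher and 6 lower, against 16.7% of all genes. Tbx21, the Th1 master regulator, rose by 3.29 ± 0.66 (SE; adjusted p = 0.012), from 4.08, below the median probe set, to 7.37; with the no-antigen arrays set to at least 4.37 it was at least 7.32-fold higher. Prdm1, which encodes Blimp-1, rose by 2.55 ± 0.46 (adjusted p = 0.0065), from 4.43 to 6.98. Stat4, which carries the interleukin-12 signal, rose by 1.80 ± 0.40 (adjusted p = 0.021). All 3 take part in effector differentiation.

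The 3 genes that fell are tied to survival and cell cycle entry. Il7r, the interleukin-7 receptor, fell by 3.14 ± 0.37 (SE; adjusted p = 0.0005), from 10.62 to 7.47, and its second probe set fell by 3.55 (adjusted p = 0.00014). Bcl2, which blocks cell death, fell by 2.72 ± 0.30 (adjusted p = 0.00029), from 9.70 to 6.99. Ccnd2, a cyclin of the first growth phase, fell by 1.21 ± 0.21 (adjusted p = 0.0045) on 1 of its 7 probe sets, and none of the others passed in limma. Il7r, Bcl2, Ccnd2 and Prdm1 kept the call without each of the 16 arrays. Tbx21 lost it without no-antigen PBS replicate 1 or 2 or persistent PBS replicate 1 or 3 (differences of 2.94 to 3.81 over all such fits, adjusted p up to 0.064). Stat4 lost it without no-antigen PBS replicate 2 or 3 or persistent PBS replicate 1 or 3 (1.67 to 2.04, adjusted p up to 0.11).

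Against transient antigen with PBS, 1 of the 20 rose and 2 fell, against 0.929% of all genes, with a median difference of -0.13 beside -0.05 over all genes. Prdm1 rose by 2.62 ± 0.46 (SE; adjusted p = 0.016), at least 5.97-fold since its transient arrays averaged 4.36, Bcl2 fell by 1.68 ± 0.30 (adjusted p = 0.016) and Ccnd2 fell by 1.0 ± 0.21 (adjusted p = 0.039). Each lost the call in some fits that left out an array, Prdm1 without transient PBS replicate 2 or 3 or persistent PBS replicate 1 or 3 (2.28 to 2.98, adjusted p up to 0.11) and Bcl2 without transient PBS replicate 3 or any 1 persistent PBS array (-1.82 to -1.46, adjusted p up to 0.095). Ccnd2 kept it in 6 of 16, those without no-antigen PBS replicate 2, either no-antigen anti-CD40 array, transient PBS replicate 1 or persistent anti-CD40 replicate 1 or 2 (-1.12 to -0.88, adjusted p up to 0.17). With the block all 3 calls held throughout, and 6 of the 20 were higher and 5 lower, against 11.4% of all genes. The 4 other Bcl2 probe sets were lower too (-1.29 to -0.73) without passing in limma (adjusted p of 0.28 to 0.52). Il7r missed the threshold on the probe set used for it (-1.58, adjusted p = 0.059) and fell by 1.75 on the second (adjusted p = 0.02). Il2, a gene that Ikaros and Aiolos are known to repress, differed by -0.04 ± 0.25 from no antigen (adjusted p = 0.98) and by -1.03 ± 0.25 from transient antigen (adjusted p = 0.072, and 0.0022 with the block). It averaged 4.41 without antigen, 5.39 with transient and 4.37 with persistent antigen, all with PBS. The first and last lie at the level of the median probe set, so these Il2 differences are inexact. Transient antigen against none with PBS called 0 of the 20 in limma (6 at an unadjusted p under 0.05), where 0.126% of all genes passed. With the block 3 were higher and 3 lower, against 2.89% of all genes. With anti-CD40, transient antigen against none called 0 of the 20 in limma (7 at an unadjusted p under 0.05), against 0.572% of all genes. The block called 5 higher and 4 lower there, against 14.0%. For persistent antigen against none with anti-CD40, limma called 2 higher and 2 lower, against 2.37% of all genes. The block called 5 higher and 5 lower there, against 16.4%.

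**Figure D4:**
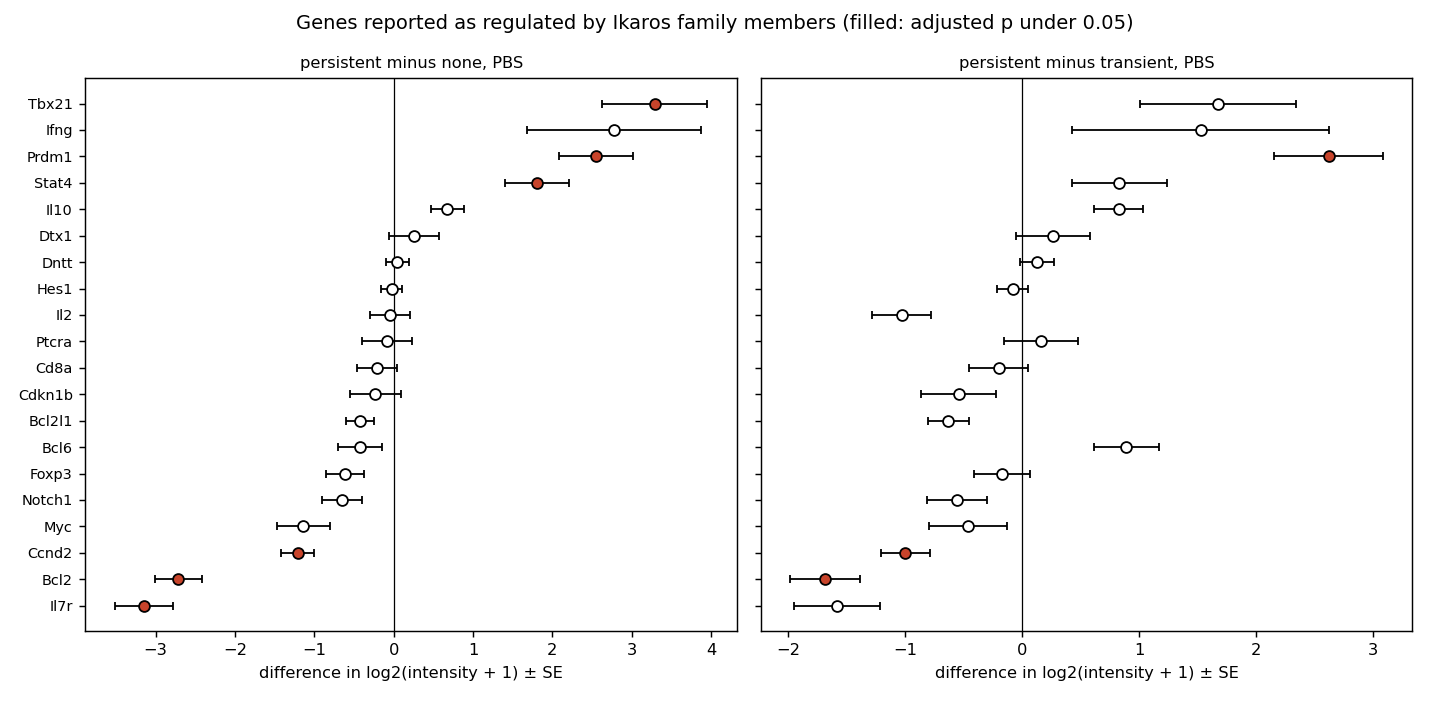
Differences ± SE in log2(intensity + 1) for the 20 genes reported as regulated by the family, persistent minus none (left) and persistent minus transient antigen (right), both with PBS; filled points passed an adjusted p of 0.05. Il7r (-3.14) and Tbx21 (3.29) are at the ends of the left panel, and Prdm1 (2.62) and Bcl2 (-1.68) at those of the right.

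The core motif bound by Ikaros, TGGGAA, was looked for on both strands (TTCCCA on the printed one) in RefSeq promoters of GRCm38.p6, each reaching from 250 bases before to 50 after a gene's start. It occurred in 25.6% of 32851 promoters, counted by start. Counted by gene, at any of its starts, it occurred in 5 of the 16 list genes with an entry. These were Cd8a, Foxp3, Prdm1, Ptcra and Tbx21. Some list genes have several starts, so the list's share cannot be set directly against that of all promoters. The promoters of Prdm1 (chr10:44458699-44458998, minus strand) and Tbx21 (chr11:97115282-97115581, minus strand) are shown, with the match in capitals, because those genes rose under persistent antigen and hold the motif. They averaged 6.56 (Prdm1) and 7.20 (Tbx21) in transient antigen with anti-CD40, the group with the lowest Ikzf3 mean. Stat4, which rose too, has no match at either of its starts. Whether Ikzf3 or the motif has a part in any of these differences was not tested.
Prdm1: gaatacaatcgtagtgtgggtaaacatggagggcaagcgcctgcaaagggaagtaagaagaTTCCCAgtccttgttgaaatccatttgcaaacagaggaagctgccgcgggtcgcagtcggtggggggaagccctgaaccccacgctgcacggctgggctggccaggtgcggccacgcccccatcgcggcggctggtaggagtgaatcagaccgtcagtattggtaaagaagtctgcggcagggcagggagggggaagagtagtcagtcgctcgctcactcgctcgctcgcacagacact
Tbx21: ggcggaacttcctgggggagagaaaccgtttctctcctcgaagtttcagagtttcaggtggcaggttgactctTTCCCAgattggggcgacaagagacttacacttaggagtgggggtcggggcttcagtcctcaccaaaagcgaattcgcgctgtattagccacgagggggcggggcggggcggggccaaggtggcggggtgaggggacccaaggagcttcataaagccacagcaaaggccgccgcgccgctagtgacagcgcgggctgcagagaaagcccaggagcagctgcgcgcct
Counted from the start of the gene, the match begins at -189 in Prdm1 and at -177 in Tbx21. Of the family itself 2 of 5 genes had an entry, Ikzf1 (both of its starts) and Ikzf5, and these letters were not in their windows. A match is a description of the letters and not a bound site.

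Proliferation genes moved with antigen too. Of 11 measured, 7 rose and 0 fell in persistent antigen against none with PBS, where 3.57% of all genes passed. The list's median difference was 2.55, beside -0.03 over all genes. Against transient antigen 0 passed in limma (11 at an unadjusted p under 0.05), where 0.929% of all genes did. With the block 11 were higher, against 11.4% of all genes. The summed intensity of the list was 1841 to 4342 without antigen and 2566 to 5897 with transient antigen, both with PBS, and 9358 to 15450 with persistent antigen and PBS. With transient antigen and anti-CD40 it was 10712 to 14618, overlapping persistent antigen, on the 2 arrays where Ikzf3 was lowest (7.72 and 7.86). The part of cell division in the Ikzf3 differences was not tested.

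**Figure D5:**
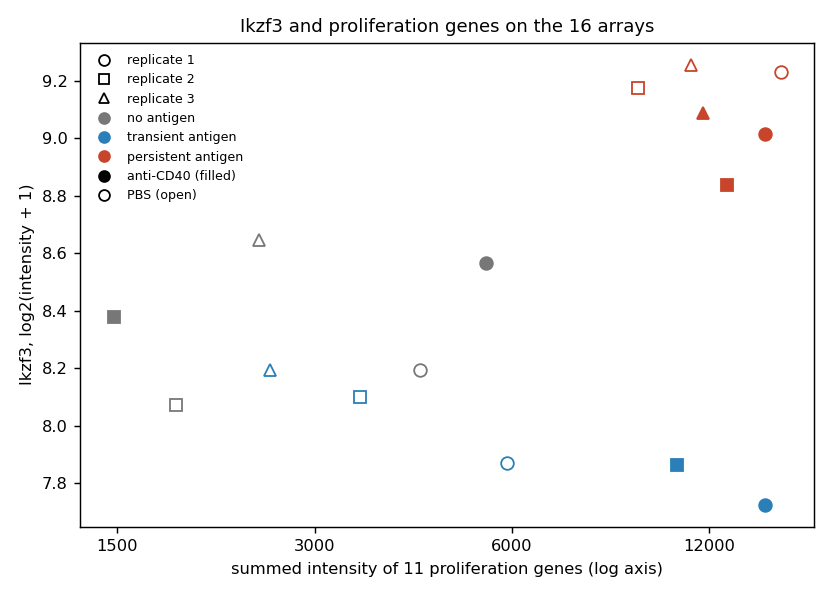
Ikzf3 in log2(intensity + 1) against the summed intensity of 11 proliferation genes (log axis) on the 16 arrays; colour gives the antigen, filling the treatment and symbol the replicate number. The 2 transient arrays with anti-CD40 have sums of 10712 and 14618, within the persistent range, and the lowest Ikzf3 values.

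Markers of other cells were read because Helios, Eos and Aiolos are also known from regulatory T cells and B cells. All 11 CD4 T cell markers measured were above the median probe set in each group mean, and Cd5 was the only one called in persistent antigen against none with PBS (-1.54). In that comparison 3.57% of all genes passed, and 0 or 1 calls in lists as short as these lie near that share. Foxp3, which defines regulatory T cells, was above the median probe set on 1 of 16 arrays. Of 8 regulatory T cell markers, 1 rose (Nrp1, 2.64) and 1 fell (Gpr83, -2.17) in that comparison, and the list's sums ran from 692.4 to 1156 without antigen, 896.8 to 1564 with transient and 866.3 to 1376 with persistent antigen, all with PBS. Of 12 B cell markers measured, Cd79a, Pax5, Cr2 and Ebf1 were below the median probe set on all 16 arrays, while Ms4a1 (up to 7.66), Blk, Bank1 and Cd22 were above it on all 16 and Fcer2a on 10. The list's sums of 387.8 to 485.2 without antigen and 430.2 to 609 with persistent antigen overlapped. Cd22 was the 1 B cell marker called (1.44), and the part of B cell RNA in the family's values was not tested. In limma 0 of 9 dendritic cell and macrophage markers and 0 of 6 NK and CD8 T cell markers passed (0 and 1 at an unadjusted p under 0.05). Of 6 plasma cell markers Prdm1 did, all in the same comparison, against 3.57% of all genes.

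Genes whose pattern was most like that of Ikzf3 were sought by Pearson correlation over the 16 arrays among 10324 genes above the median probe set, after the replicate number was removed. The arrays share their groups, so these correlations are a description. The highest were Nt5e (0.899), Tgfb3 (0.871), Tox2 (0.866), Arsb (0.840), Cxcr5 (0.828) and Iqgap1 (0.823). Nt5e encodes the ectoenzyme CD73, Cxcr5 the chemokine receptor of follicular helper cells, and Tox2 a transcription factor of the TOX family. Tox2 averaged 8.02 without antigen, 8.45 with transient and 10.82 with persistent antigen, all with anti-CD40. Cxcr5 averaged 4.20 without antigen and with transient antigen, below the median probe set, and 5.70 with persistent antigen, all with PBS. The lowest were Emb (-0.925), Fbxw5 (-0.879), Qdpr (-0.868) and Map1s (-0.852). Without removal of the replicate number 3 of these 6 and 1 of these 4 were again among the extremes.

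For Ikzf2 the most alike were Bcl6 (0.906), Pik3ca (0.865) and Ero1b (0.862). Bcl6, the repressor that directs follicular helper cells, averaged 7.39 and 7.07 without antigen, 6.08 and 5.94 with transient and 6.97 and 6.92 with persistent antigen, PBS before anti-CD40. The most alike were Tmem81 (0.897), Akap5 (0.888) and Slc25a36 (0.885) for Ikzf1, Car14 (0.868), Fpr-rs4 (0.852) and Septin3 (0.851) for the flat Ikzf4 probe set, and Mrvi1 (0.868), Mib1 (0.833) and Phkb (0.799) for Ikzf5. Among the members themselves the correlations ran from -0.662 (Ikzf3 with Ikzf5) to 0.469 (Ikzf1 with Ikzf2).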

How the data were processed

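The deposited values were microarray intensities on a linear scale, which the authors obtained by RMA according to the submitters' processing notes (its version is not given in the sources used here). Each was converted to log2(intensity + 1) and not scaled again. Of 45101 probe sets, 64 array controls were left out, 34945 had 1 gene symbol, 932 several and 9224 none; symbols were updated to RefSeq GRCm38.p6, and the probe set with the highest mean stood for each of 18193 genes. Probe sets were read through all 16 arrays, with 0 columns unassigned.

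Group means were fitted with limma 3.58.1 (R 4.3.3) on all 16 arrays, with eBayes and an intensity trend, and p-values adjusted by Benjamini-Hochberg over all genes. The fit was tested on simulated data. Replicate numbers come from the titles and pair the arrays. Same-numbered arrays of different groups deviated together in 36 of 36 pairs (correlations of 0.48 to 0.81, median 0.68). The same fit with the number as a block was therefore also run. By the array numbers in the descriptions, replicate 2 of the no-antigen groups belongs to run 3 and replicate 2 of the antigen groups to run 4. Differences from no antigen within replicate 2 thus cross these runs, and run 3 holds no-antigen arrays only. No arrays were identical (highest within-group correlation 0.987). The family and all gene lists were chosen with earlier results of these data known. Genes named were the 5 members, list genes past the threshold in the 2 persistent-antigen comparisons with PBS (at most 6 a list), defining markers, and the most correlated genes; those named from the blocked fit alone and Il2 were chosen after their values were seen. The precision is limited by groups of 2 or 3 arrays.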

Additional observations from a re-analysis of the deposited data

How the results depend on the processing

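The 9 comparisons were repeated with the replicate block, with the 4 runs of array numbers in the descriptions as a block, in the compared groups alone, without the intensity trend, without dim genes, with all probe sets of a gene averaged, after cyclic loess, with array weights, with a pseudocount of 16, and without each array in turn; the blocked fit without each array and the probe sets without each array were chosen after seeing the data. Of the member counts 271 were the same and 35 moved, the latter including the count of genes most like Ikzf3. Of the member differences 680 were the same and 27 changed sign, whether or not their call changed. With the sign kept, 15 newly passed and 16 no longer passed. The 680 include the largest member difference in the comparisons of anti-CD40 with PBS and in the interaction, which were judged by the spread within groups. The replicate block changed no call of a member besides those of Ikzf2.

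In transient antigen against none with PBS the 0 members called became 1 with the replicate block, the 4 runs and array weights; the blocked count was 0 to 1 without an array. In persistent antigen against none with PBS the 1 member became 2 with the 4 runs (Ikzf1 added), 0 in the compared groups alone and 0 after cyclic loess, and was 0 to 1 without an array (1 to 2 with the block). With the mean of the probe sets the count was 1, but the member was Ikzf4 (-1.77) and not Ikzf3. In persistent against transient antigen with PBS the 1 became 0 in the compared groups alone and with the mean of the probe sets, 2 with array weights (Ikzf2 2.15), and 0 to 1 without an array (1 to 2 with the block). With anti-CD40, transient antigen against none went from 0 to 1 with the replicate block, the 4 runs and the mean of the probe sets (Ikzf4 -1.61), and was 0 to 1 in the blocked fits without an array; persistent antigen against none went from 0 to 1 with the mean of the probe sets (Ikzf4 -1.74). Signs turned for small or dim values, and the cause was not tested. In transient minus none with PBS, Ikzf4 was -1.05 with the mean of the probe sets, -1.82 by 1457342_at and -1.47 by 1438274_at, and ran from -0.22 (without transient PBS replicate 2) to 0.42 without an array; Ikzf5 was 0.019 with the 4 runs and ran from -0.11 to 0.050 (without no-antigen PBS replicate 1); Ikzf1 was 0.16 by 1421303_at. In persistent minus none with PBS, Ikzf4 was 0.0023 after cyclic loess and ran from -0.38 to 0.19 without an array, above 0 without no-antigen replicate 2 (0.19), persistent replicate 1 (0.16) or persistent replicate 3 (0.02). There Ikzf2 was 0.091 by 1421643_at, Ikzf3 -0.23 by 1441088_at and -0.40 by 1453378_at, and Ikzf5 0.10 by 1436554_at. In persistent minus transient with PBS, Ikzf1 ran from -0.41 to 0.017 and Ikzf4 from -0.53 to 0.16, both highest without transient replicate 2, and Ikzf4 was 0.0078 without persistent replicate 1. Ikzf3 was -0.23 by 1453378_at and Ikzf5 0.10 by 1436554_at. With anti-CD40, Ikzf4 in transient minus none ran from -0.83 to 0.36, above 0 without no-antigen replicate 2 (0.36) or transient replicate 1 (0.15), and in persistent minus none from -1.02 to 0.17 (without no-antigen replicate 2). In the latter Ikzf3 was -0.10 with the mean of the probe sets, -0.34 by 1441088_at and -0.47 by 1453378_at, and Ikzf5 0.037 by 1436554_at.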
